A study of Mus musculus with 6 samples.

Results

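Bapx1 (Nkx3-2) peaks of the mouse embryo that lay far from any transcription start site (TSS), were not seen in a fibroblast line and lacked the 6-base Bapx1 motif at their summit numbered 662, out of 2815 peaks in the list. They were chosen by the authors' peak calls in both settings, by distance and by sequence, in 4 steps. Of 2801 autosomal peaks, 1263 had a summit more than 25 kb from every annotated TSS of the mm9 mouse genome. Of these, 56 had the centre of a Bapx1 peak of NIH3T3 cells within 1 kb, which left 1207 peaks termed distal embryo-only here. Of the 1207, 662 held neither TGAGTG nor TAAGTG, read on either strand, wholly within 100 bp of the summit, and 545 held at least 1 match. The study describes this motif as reported before and found it again in strong peaks of the same list. The absence of the motif and the presence of a peak are what the choice used and are not findings.

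Bapx1 is a homeodomain transcription factor of the NK family. It is expressed in the sclerotome, the part of the somite that forms the vertebral cartilage, and acts there largely as a repressor that keeps chondrocytes from maturing early. In chromatin immunoprecipitation followed by sequencing (ChIP-seq) a protein is pulled down with the DNA it lies on, directly or through other proteins, and the ends of the fragments are read as tags. Peaks are places where tags of the pulled-down sample pile up beyond a control, and the summit is the position of the highest pile. Peaks far from a TSS often lie in enhancers, elements that act on genes over long distances.

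The Bapx1 library came from vertebral columns of E12.5 CD1 embryos in which the endogenous Bapx1 protein carried an S-peptide and a calmodulin binding peptide at its N-terminus, pulled down with an antibody against the S-peptide. Its control was the same antibody on vertebral columns of wildtype CD1 embryos of the same age. Columns of many embryos were pooled for each of these 2 libraries. In the NIH3T3 mouse fibroblast line, V5-tagged Bapx1 was overexpressed and pulled down with a V5 antibody, and the control is described by the labels both as cells with the empty pcDNA6 vector and as wild type cells. Whole columns were used, so a site occupied in few cells and a site occupied weakly in many cells cannot be told apart. Each condition had 1 library. No spread between replicates could therefore be measured, intervals below cover counting error only, and tests describe these regions in these libraries. The embryo libraries held 24855032 (Bapx1) and 20704235 (wildtype) uniquely mapped tags, and the NIH3T3 libraries held 9124697 (Bapx1) and 13327426 (V5 control).

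The sequence under the strongest of these peaks shows what the choice left. The bases searched, 100 on either side of the summit, are printed for the 4 peaks with the smallest p, on the plus strand of mm9, with every 6-base stretch that differs from TGAGTG or TAAGTG at 1 base, on either strand, in capitals.
Psmg1 region, chr16:96070400-96070600: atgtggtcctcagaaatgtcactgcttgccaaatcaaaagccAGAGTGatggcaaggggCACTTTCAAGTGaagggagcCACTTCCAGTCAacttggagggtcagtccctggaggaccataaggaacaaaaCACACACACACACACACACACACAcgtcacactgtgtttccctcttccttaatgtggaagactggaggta
Hist1h2al region, chr13:51354542-51354742: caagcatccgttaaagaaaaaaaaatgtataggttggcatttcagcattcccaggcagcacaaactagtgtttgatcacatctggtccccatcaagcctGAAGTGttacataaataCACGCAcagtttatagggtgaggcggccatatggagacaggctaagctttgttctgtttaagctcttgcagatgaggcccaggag
Arl5a region, chr2:52327335-52327535: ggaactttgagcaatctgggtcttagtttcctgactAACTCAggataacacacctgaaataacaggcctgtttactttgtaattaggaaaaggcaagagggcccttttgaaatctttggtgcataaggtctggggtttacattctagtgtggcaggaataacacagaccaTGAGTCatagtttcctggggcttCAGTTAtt
Gm9869 region, chr9:60799186-60799386: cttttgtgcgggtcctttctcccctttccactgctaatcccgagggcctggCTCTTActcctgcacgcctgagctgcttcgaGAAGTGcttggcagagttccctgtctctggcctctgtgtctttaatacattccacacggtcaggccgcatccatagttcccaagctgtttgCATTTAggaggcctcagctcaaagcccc
The gene is the one with the nearest protein-coding TSS. The variant GAAGTG, which is CACTTC on the other strand, stood in 3 of the 4 windows, and the Arl5a window held 3 other variants. In the Psmg1 region a run of CA repeats supplied further matches.

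Over the 662 peaks the tagged embryos gave several times the tags of the wildtype embryos, while the false discovery rate (FDR) in the list was high. The authors' peak caller, MACS, had counted 12 to 188 tags in them (median 19), with a fold enrichment over the local background of 3.76 to 38.8 (median 8.41) and a significance, 10 times −log10 of p, of 50.1 to 1111 (median 65.5). Its FDR, taken from the peaks called with the 2 libraries exchanged, ran from 14.3% to 71.8% with a median of 61.0%, and was at most 50% for 58 peaks. Counted again from the deposited tags at the same limits, the 662 peaks held 15433 Bapx1 tags and 2756 wildtype tags. Scaled to the tags on the chromosomes, this was a ratio of 4.66 (95% interval 4.48 to 4.86). The distal embryo-only peaks with the motif had a ratio of 5.06 (4.85 to 5.30) and the whole list 4.54 (4.46 to 4.63). At 5 to 10 kb from the 662 summits the ratio was 1.03 (1.02 to 1.04). Each of these ratios over peaks is a description, because the peaks were called from the same tags.

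**Figure D1:**
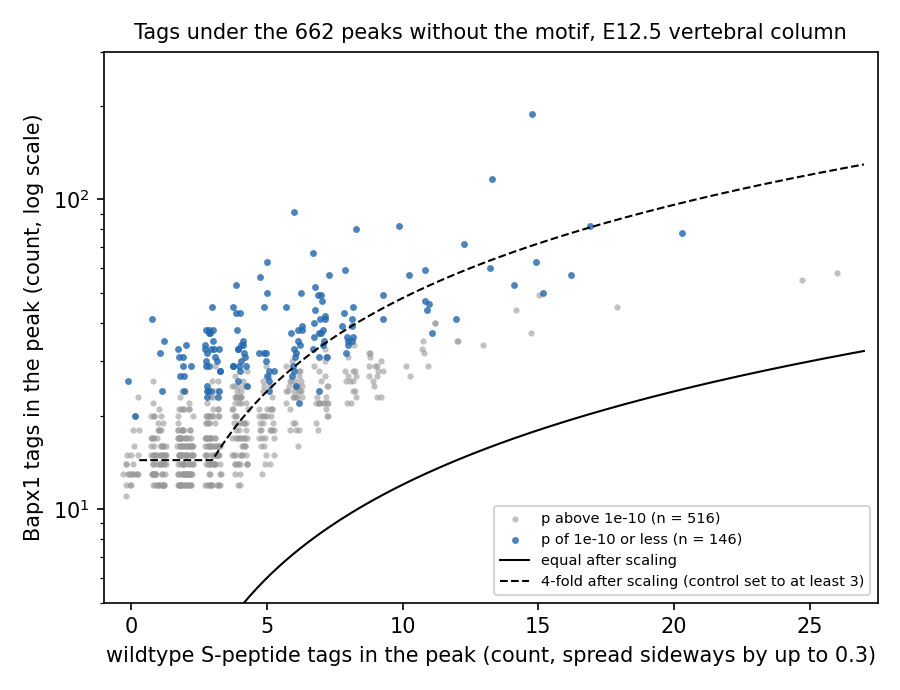
Bapx1 tags (vertical, log scale) against wildtype S-peptide tags (horizontal) for each of the 662 peaks, with lines where the libraries are equal and where Bapx1 is 4-fold higher after scaling. No peak had more than 26 wildtype tags, every peak lies above the line of equality, and the 146 peaks with a p of at most 1e-10 lie mostly above the 4-fold line.

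Peak by peak, 331 of the 662 (50%, 46.1% to 53.9%) had at least 4-fold more Bapx1 than wildtype tags, where wildtype counts of 0 to 2 were set to 3. With this floor a peak of 14 Bapx1 tags reached at most 3.89-fold, so peaks with few tags could not pass. The lower quartile of Bapx1 tags was 15 for these peaks and 16 for those with the motif. The share therefore depends in part on the number of tags. Over the whole list the share was 49.7%, so the peaks without the motif stood at the level of the list. The scaled fold ran from 1.83 to 12.6 with a median of 4.01, and 233 peaks (35.2%) had fewer than 3 wildtype tags. The distal embryo-only peaks with the motif reached 4-fold in 56.3%. Of the peaks without the motif 22.1% had a p of at most 1e-10, against 28.6% of those with it and 23.5% of the whole list.

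The peak with the smallest p lay in an intron of 1600002D24Rik, 142 kb from Psmg1, at chr16:96069773-96070831. It held 189 Bapx1 and 15 wildtype tags, a 10.5-fold difference, and 6 and 7 tags in the NIH3T3 Bapx1 and V5 libraries. The intergenic peak at chr13:51354498-51354925, nearest to the histone gene Hist1h2al, held 91 and 6 tags in the embryo and 2 and 0 in NIH3T3 cells, and its 12.6-fold difference was the highest of the 662. In an intron of Cacnb4, a calcium channel subunit gene, the peak at chr2:52327215-52327962 held 116 and 13 tags in the embryo. Here the NIH3T3 libraries gave 16 Bapx1 and 4 V5 tags, although the nearest NIH3T3 peak was 16772 bp away. The peak at chr9:60798986-60799511, 113279 bp from Gm9869, held 80 and 8 tags, and that at chr1:163619019-163619504, 99123 bp from Fasl (the ligand of the death receptor Fas), held 63 and 5. A peak in an intron of Dclk2 at chr3:86621874-86622287 had the third highest fold of MACS, 28.3, with 45 and 3 tags. In the embryo the scaled difference of these 6 peaks ran from 7.43-fold to 12.6-fold. They were named for a small p or a high fold, so large differences follow from that choice.

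The tags of the strands lay apart around the summits without the motif by about as much as around those with it. Around a protein on DNA, plus-strand tags gather on the left and minus-strand tags on the right. Within 200 bp of the 662 summits the median 5′ end of 7783 plus-strand Bapx1 tags lay 46 bp to the left, and that of 7735 minus-strand tags 46 bp to the right. At the 545 peaks with the motif the medians were 49 bp to the left and 50 bp to the right. The wildtype tags, 1601 and 1679 at the peaks without the motif, had medians of 27 bp to the left and 22 bp to the right. MACS set the summits of both sets from the Bapx1 tags, with a distance d between the strands of 77 bp. The shape, its likeness between the sets and its contrast with the wildtype tags are thus in large part fixed by that choice. The shape was not tested.

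**Figure D2:**
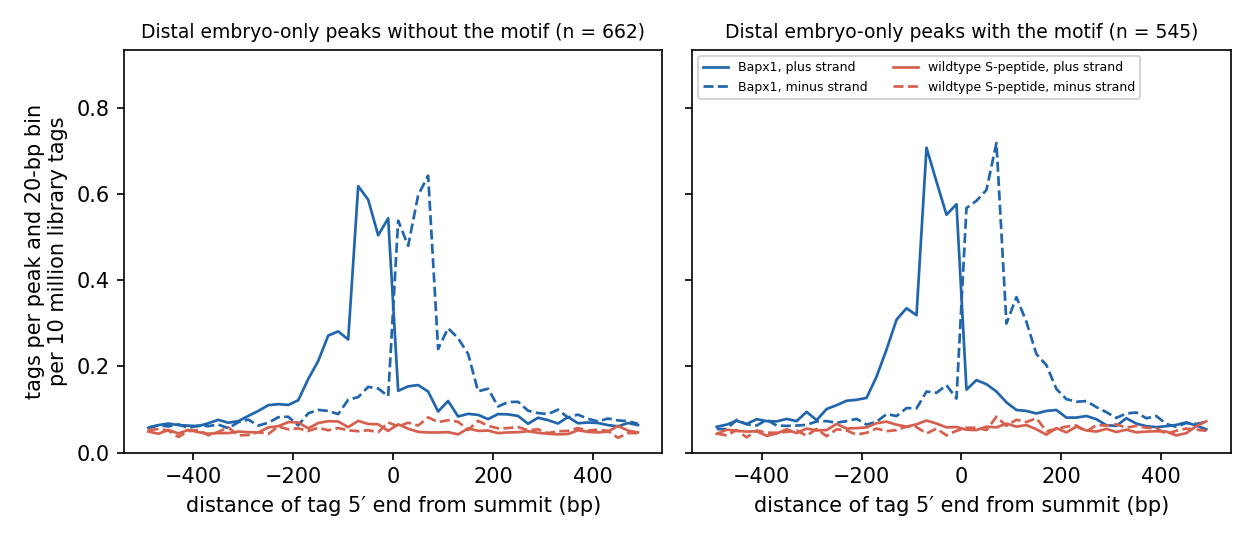
Tag 5′ ends per peak and bin, scaled to library size, by distance from the summit, for the 662 peaks without the motif (left) and the 545 with it (right). Solid lines are the plus strand and dashed lines the minus strand, Bapx1 in blue and wildtype S-peptide in red. In both sets Bapx1 tags form a plus-strand peak left of the summit and a minus-strand peak right of it. Wildtype tags stay far lower, with a slight rise on the same sides.

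In NIH3T3 cells the 662 regions had a Bapx1 to control ratio near 1. They held 1240 Bapx1 and 1655 V5 control tags, a scaled ratio of 1.048 (0.973 to 1.13). At 5 to 10 kb from the summits the ratio was 0.955 (0.939 to 0.970), slightly lower, and the intervals do not overlap. No NIH3T3 Bapx1 tag stood in 174 of the 662, in 85 of the 545 distal embryo-only peaks with the motif and in 472 of all 2815 peaks. The distal embryo-only peaks with the motif had a ratio of 1.34 (1.24 to 1.45), although peaks near an NIH3T3 peak had been left out of both sets. The 56 distal peaks with an NIH3T3 peak nearby had 4.62 (3.85 to 5.57). The most NIH3T3 Bapx1 tags in a member were 23, at a peak near Birc3 with 26 V5 tags. These ratios follow in part from the choice and were not tested between the sets.

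The 662 peaks lay 25006 to 741491 bp from the nearest TSS, with a median of 77278 bp, and 107964 bp from the nearest protein-coding TSS. Between 25 and 50 kb lay 202 (30.5%), between 50 and 100 kb 208 (31.4%), between 100 and 250 kb 188 (28.4%), between 250 and 500 kb 54 (8.16%), and 10 further out. Their summits were intergenic in 422, intronic in 230 and exonic in 10. Inside a gene lay 240 of 662 (36.3%, 32.6% to 40.05%), against 212 of 545 peaks with the motif (38.9%, 34.8% to 43.1%). This difference of −2.65 percentage points did not pass the test (two-sided Fisher's exact test, p = 0.370 after Benjamini-Hochberg adjustment over 3 comparisons of the sets). The share of peaks with at least 50% G or C within 100 bp of the summit was 27.8% (24.4% to 31.4%) against 31.9% (28.0% to 36.0%). The sets were separated by a motif searched in these same bases, so no p is given for this difference. Another peak of the list lay within 100 kb for 255 of the 662 (38.5%) and for 34.7% of the peaks with the motif.

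Near matches of the motif were more frequent at these summits than beside them. There are 32 6-mers that differ at 1 base from TGAGTG or TAAGTG and are neither of them. Windows of 50 bp on either side of the summit were compared with windows of the same length centred 500 bp to the left and right. Of the 662 summit windows, 612 (92.4%, 90.2% to 94.3%) held at least 1 of the 32, against 1076 of 1324 flank windows (81.3%, 79.1% to 83.3%; p = 6.60e-12 by a two-sided exact test of Fisher). Among the 545 peaks that hold the motif, a variant stood in 87.9% (84.9% to 90.5%) of summit windows. The flanks of that set held a variant in 83.4% (81.05% to 85.6%). The sets differed by 4.56 points, and by 0.108 points with windows of 100 bp on either side. The sets were separated by the motif, of which the variants are near matches, so no p is given for this difference. Its cause was not tested.

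Tested singly among all 2078 6-mers (a 6-mer and its reverse complement counted as 1), 7 of the 32 variants were called more frequent at summits. None was called less frequent, although some variants that were not called had a lower share there, such as TGATTG (2.57% against 5.29%). Over all 6-mers 4.43% were called higher and 4.86% lower, 9.29% in either direction, at an adjusted p under 0.05 by Fisher's exact test. TGTGTG stood in 137 summit windows (20.7%) against 12.4% of the flank windows (adjusted exact p = 0.000167). GAAGTG stood in 90 (13.6%) against 5.59% (adjusted exact p = 9.03e-07) and CAAGTG also in 90, against 5.89% (adjusted exact p = 3.07e-06). TATGTG followed with 13.1% against 5.59% (adjusted exact p = 3.56e-06) and AGAGTG with 12.2% against 6.27% (adjusted exact p = 0.000484). AAAGTG (11.03% against 6.27%) and TGCGTG (4.23% against 1.59%) completed the 7. Without the 135 peaks near a run of at least 6 CA or TG units, TGTGTG (adjusted exact p = 0.0543) and TATGTG (adjusted exact p = 0.0525) no longer passed, whereas the variants with G or C before AAGTG and with A before GAGTG did. CAAGTG is known as the core that NK2 relatives of Bapx1, such as Nkx2-1 and Nkx2-5, recognise. Which protein lay on these sites was not measured. At the peaks with the motif TGTGTG (23.3% against 15.0%, adjusted exact p = 0.00151), GAAGTG (10.1% against 5.14%, adjusted exact p = 0.00735) and AGAGTG (8.99% against 5.14%, adjusted exact p = 0.0442) were called as well, so an excess of near matches was not particular to the peaks without it.

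**Figure D3:**
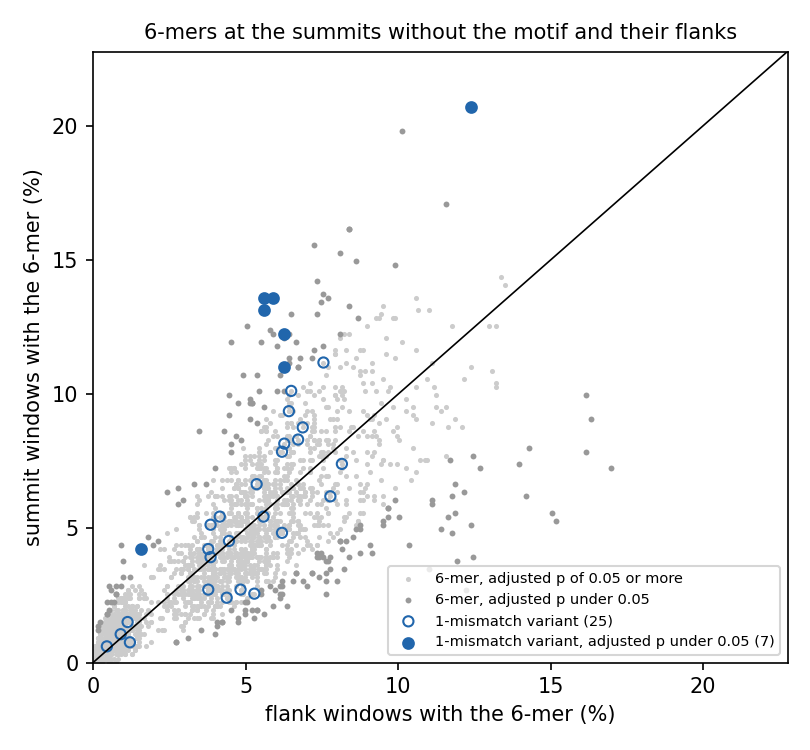
Share of the 662 summit windows (vertical) against share of the 1324 flank windows (horizontal) that hold each of 2078 6-mers, in percent; filled blue points are the 7 1-mismatch variants with an adjusted p under 0.05, open blue points the other 25, and the line marks equal shares. All 7 filled points lie above the line, with TGTGTG at 20.7% the highest.

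Changes at the first base accounted for 4 of the 7 variants. The stretch AAGTG without its T recurred among the called 6-mers. Of 7 tested 6-mers with AAGTG, 6 were called higher at summits, where 4.43% of all 6-mers were. Among them were AAGTGG (12.5% against 5.06%, adjusted exact p = 1.62e-06) and AAGTGT (11.9% against 5.51%, adjusted exact p = 9.35e-05), picked after their values were seen. Those that begin and those that end with AAGTG can overlap on the same site, so the 6 calls are not independent. C or G before AAGTG, a group chosen after its values were seen, so that no p is given for it, stood in 173 of the 662 summit windows (26.1%, 22.8% to 29.7%) and in 147 of 1324 flank windows (11.1%, 9.46% to 12.9%). At the peaks with the motif the shares were 17.4% (14.3% to 20.9%) and 10.7% (8.96% to 12.7%). A, C or G before GAGTG, likewise chosen afterwards, stood in 22.5% (19.4% to 25.9%) of the summit windows without the motif and 13.6% (11.8% to 15.6%) of their flanks. At the peaks with the motif these shares were 19.8% (16.5% to 23.4%) and 11.01% (9.21% to 13.0%). AAGTGG stood in 16.9% of the summit windows with the motif and 6.06% of their flanks, a share that the choice of these peaks raises in part, since TAAGTG followed by G contains it. The density of C or G before AAGTG was 3.53 matches per kb (2.92 to 4.24) within 25 bp of the summit, 2.54 (2.02 to 3.14) from 25 to 50 bp and 1.27 (1.15 to 1.399) from 500 to 750 bp.

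**Figure D4:**
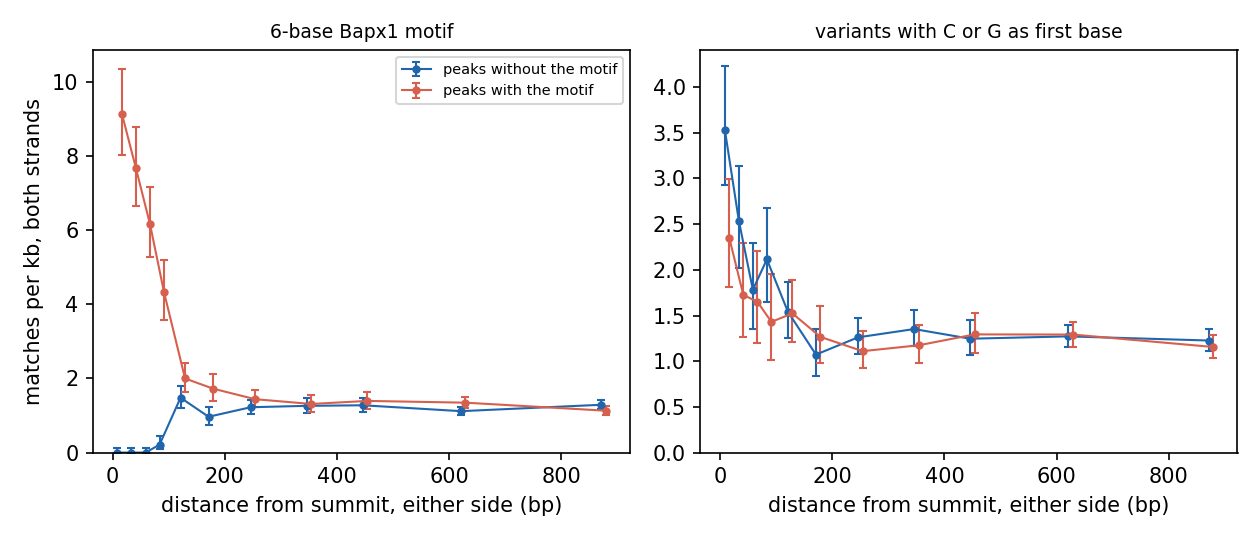
Matches per kb on both strands by distance from the summit, with exact Poisson 95% intervals, of the 6-base motif (left) and of its variants with C or G as first base (right), for the 662 peaks without the motif (blue) and the 545 with it (red). The blue points on the left are near 0 within 100 bp by the choice of peaks; on the right they fall from 3.53 per kb at the summit to about the same level as the red points further out.

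The stretches around such a variant are printed below for 12 of the strongest peaks that hold it within 50 bp of the summit, on the strand that reads AAGTG, 30 bases each, with the variant in capitals.
Psmg1, chr16:96070467-96070496, minus strand: ccaagttgactgGAAGTGgctcccttcact
Hist1h2al, chr13:51354629-51354658, plus strand: cccatcaagcctGAAGTGttacataaatac
Gm9869, chr9:60799256-60799285, plus strand: gagctgcttcgaGAAGTGcttggcagagtt
Ror2, chr13:53297047-53297076, minus strand: cgggtctgcaggGAAGTGacgactgggggc
Dclk2, chr3:86622053-86622082, minus strand: ggtaaacactctGAAGTGcttgcaggtgcc
Tmem167, chr13:90276109-90276138, plus strand: aggggacaaagtGAAGTGactttttcccag
Cntnap5a, chr1:115936203-115936232, minus strand: catgaaaggaagGAAGTGagctaaccacaa
Tle4, chr19:14295282-14295311, plus strand: gtttaaaccttcCAAGTGgttttggattcc
Jazf1, chr6:53107050-53107079, plus strand: actgcattgcctGAAGTGgctccattcctc
Pygo1, chr9:72725899-72725928, plus strand: tgggaagaaaccCAAGTGtggtttcaggct
Gm17582, chr13:25830592-25830621, plus strand: cctgttccttaaCAAGTGagaatgacttgc
Gm10076, chr14:106131639-106131668, minus strand: attactgcatggGAAGTGcctgtccgctgg
In these 12 stretches the variant was centred between 26 bp to the left and 46 bp to the right of the summit. The peak in an intron of Ror2, a receptor of Wnt5a needed in cartilage, held 72 Bapx1 and 12 wildtype tags.

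The 1207 distal embryo-only peaks were also set in 5 groups of like size by their p, as a description without a test. Among the 242 distal embryo-only peaks with the smallest p, 117 lacked the motif (48.3%, 41.9% to 54.8%), and among the 241 with the largest p, 156 did (64.7%, 58.3% to 70.8%). C or G before AAGTG stood within 50 bp of the summit in 47 of those 117 (40.2%, 31.2% to 49.6%) and in 32 of those 156 (20.5%, 14.5% to 27.7%), with 20.7% to 26.7% in the 3 groups between. The 173 peaks that held it had a Bapx1 to wildtype ratio of 5.02 (4.65 to 5.43), and the other 489 had 4.53 (4.32 to 4.75). In NIH3T3 cells the ratios were 1.08 (0.943 to 1.246) and 1.03 (0.946 to 1.13), and both intervals hold 1.

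The 5 6-mers with the largest excess at the summits were ACACAC (19.8% against 10.1%), TGCACA (15.6% against 7.25%), then the reverse complements of the variants TGTGTG (20.7%) and GAAGTG (13.6%), and ACACAT (16.2% against 8.38%), level with CACAGC. The 5 with the largest deficit were AAAAAT (5.29% against 15.2%), AAGAAA (7.25% against 16.99%), AAAAAA (2.72% against 12.2%), TAAAAA (5.59% against 15.0%) and AAAAGA (3.93% against 12.5%), all rich in A and T. The base composition moved with these counts. G and C made up 47.1% of the bases at the summits against 43.3% at 500 bp to the left and 43.4% at 500 bp to the right. At least 3 G or C stood in 75 of the 92 6-mers called higher and in 1359 of the 2078 tested. At most 2 stood in 91 of those called lower and in 719 of those tested. Among the 639 6-mers with exactly 3 G or C, which include AAGTGG and both variants with C or G before AAGTG, 30 were called higher and 8 lower. The part of base composition in single 6-mers was not tested.

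Motifs of other factor families were searched from a list of 21, on both strands, in the same windows. By the test over the list 6 (28.6%) were called, 5 higher and 1 lower. CAGCTG, an E-box of the kind bound by basic helix-loop-helix factors, stood in 79 summit windows (11.9%) against 4.53% of the flanks (adjusted exact p = 9.03e-07 over all 6-mers), and at peaks with the motif in 11.2% against 4.04%. TGTGGT, the core bound by the RUNX family of skeletal and blood regulators, stood in 13.4% against 7.48% (adjusted exact p = 0.00124 over all 6-mers), and at peaks with the motif in 12.3% against 7.06%. TTGGCA, an arm of the palindrome that nuclear factor I binds, stood in 9.21% against 4.46% (adjusted exact p = 0.00193 over all 6-mers). TGTTTAC, a forkhead motif, stood in 3.32% against 1.13%, and GGGCGG, the SP/KLF box, in 2.72% against 1.13%, which did not pass over all 6-mers. Over the list the call for TGTTTAC was lost with windows of 100 bp (adjusted exact p = 0.199) and with flanks at 1000 bp (adjusted exact p = 0.138). That for GGGCGG was lost when the distance was taken from protein-coding starts (adjusted exact p = 0.121). AGATAA, bound by GATA factors, was less frequent, with 2.87% against 7.02% (adjusted exact p = 0.00348 over all 6-mers). Among the 146 peaks with a p of at most 1e-10 the calls over the list for nuclear factor I, GATA, forkhead and SP/KLF were lost. The differences there were 5.14, −4.45, 3.77 and 1.71 points, each as large as or larger than over all 662 peaks.

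**Figure D5:**
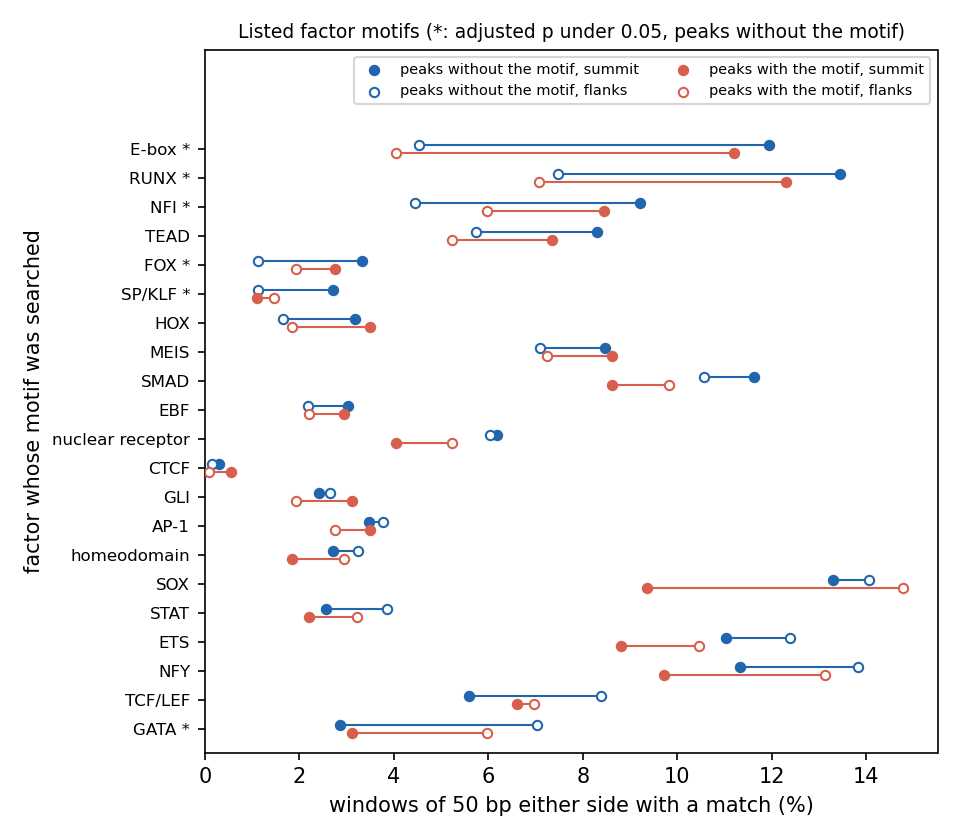
Percentage of windows of 50 bp on either side with a match to each of 21 listed factor motifs at summits (filled) and flanks (open), for the 662 peaks without the Bapx1 motif (blue) and the 545 with it (red), ordered by the summit minus flank difference of the former; an asterisk marks an adjusted p under 0.05 over the list. The E-box has the widest gap, 11.9% against 4.53%, and GATA the widest in the other direction, 2.87% against 7.02%.

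The SOX motif, 7 bases around the core CAA, did not pass the test at the peaks without the Bapx1 motif, with 88 summit windows (13.3%) against 14.0% of the flanks. At the peaks with the motif it stood in 9.36% of the summit windows against 14.8% of the flanks, a lower share that was called over the list (adjusted exact p = 0.0158). The difference between the sets was not tested. SOX factors, with Sox9 at their head, direct cartilage formation in this tissue. AP-1 (TGANTCA) stood in 3.47% against 3.78%, the homeodomain core TAATTA in 2.72% against 3.25% and the CTCF core in 2 summit windows. TEAD (GGAATG), MEIS (TGACAG) and HOX (TTTATGG) stood in 8.31%, 8.46% and 3.17% of the summit windows, against 5.74%, 7.10% and 1.66% of the flanks, and did not pass. The other families were ETS (AGGAAG), NFY (ATTGG), nuclear receptors (AGGTCA), EBF (CCCNNGGG), GLI (CCACCCA), SMAD (CAGACA), TCF/LEF (CTTTGA) and STAT (TTCNNNGAA). Their summit minus flank differences ran from −2.79 points for TCF/LEF to 1.06 points for SMAD and did not pass.

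The 662 peaks had 545 different nearest protein-coding genes, of which 90 had more than 1 peak. Genes were taken by the nearest protein-coding TSS, and the ChIP data do not show which gene a peak acts on. Of a cartilage list of 24 genes, 4 were nearest to 5 of the peaks (0.755%), where 11 of all 1263 distal autosomal peaks (0.871%) were nearest to such a gene. One lay 28814 bp from Col2a1, the collagen of the cartilage matrix, at chr15:97863839-97864042, with 14 Bapx1 and 3 wildtype tags. The intergenic peak 27532 bp from Runx3, a regulator of chondrocyte maturation, at chr4:134735790-134736185 held 24 and 3 tags. Sox5, a partner of Sox9, had a peak in its own intron at chr6:144248095-144248317 with 16 and 2 tags, and another 368936 bp away at chr6:143526501-143526850 with 29 and 3. A peak in an intron of Wwp2, a ubiquitin ligase gene that carries a miRNA of cartilage, at chr8:110043792-110044058 held 15 and 3 tags. After scaling, with wildtype counts of 0 to 2 set to 3, the 5 differed by 3.89-fold to 8.05-fold. A higher Bapx1 count in each follows from the peak calls. Their FDR by MACS ran from 53.8% to 69.8%.

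Of a sclerotome and somite list of 23 genes, 6 were nearest to 9 peaks (1.36%), against 1.27% of the distal autosomal peaks. The share thus stood near that of the distal peaks. Gli2, Gli3 and Ptch1, which carry the Hedgehog signal that induces the sclerotome, accounted for 5 of the 9. This grouping was not among the planned lists, and its count over all distal peaks is not given here. Gli3, the main repressor of the pathway, had a peak in its own intron at chr13:15694528-15694960 with 32 Bapx1 and 3 wildtype tags and another at chr13:15454314-15454525 with 12 and 2. Near Ptch1, the Hedgehog receptor, chr13:63743053-63743532 held 31 and 7 tags and chr13:63755965-63756182 held 13 and 2. Near Gli2, an activator, chr1:121024143-121024413 held 17 and 2. The forkhead genes Foxc1 and Foxc2, needed for somite and vertebral formation, had 3 peaks. Those of Foxc1 lay in introns of the neighbouring gene Gmds with 15 and 5 tags (chr13:32126177-32126427) and 16 and 2 tags (chr13:32140247-32140496). That of Foxc2 held 29 and 6 (chr8:123824604-123825055). The FDR by MACS of these Hedgehog and forkhead gene peaks ran from 53.7% to 68.8%.

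The lists of other genes took few of the peaks. No peak had its nearest gene in the Hox list (39 genes), the bone list (11 genes) or the vascular and blood list (14 genes). Over all 1263 distal autosomal peaks the counts were as low, with 0 for the Hox list, 2 (0.158%) for the bone list and 2 for the vascular and blood list. The muscle list of 10 gave 1 peak, near Pax3 at chr1:78005516-78005779 with 15 and 1 tags. The neural list of 15 gave 2. A peak in an intron of Ntrk3, a neurotrophin receptor gene, at chr7:85392963-85393357 held 33 Bapx1 and 6 wildtype tags, and a peak 422184 bp from Sox2 at chr3:34971144-34971388 held 17 and 2. The FDR by MACS was 54.5% near Pax3, 54.9% in Ntrk3 and 69.1% near Sox2. Shares over all distal autosomal peaks were as low, at 0.158% for muscle and 0.317% for neural genes.

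Auts2, a gene of neural development, had the most peaks as nearest gene, 9, a gene outside the naming rule and picked after its values were seen. They lay over chr5:132054641-132705829 with 18 to 41 Bapx1 and 0 to 8 wildtype tags each, and 8 of the 9 summits were intronic and 1 exonic. Cxcr7, Maf, Rab28, Tle4, Tnp1 and Zfp608 had 4 peaks each, named likewise afterwards. Counts per gene over all distal peaks are not given here. These counts therefore do not show whether a gene is particular to the peaks without the motif. Of the 4 near Maf, a transcription factor gene of chondrocyte terminal differentiation, the strongest at chr8:118398723-118399080 held 30 and 4 tags. Of the 4 near Tle4, a Groucho corepressor gene, chr19:14295132-14295624 held 49 and 7 tags and carried CAAGTG, shown above.

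The peaks next to the limits of the choice are given as values, without a test. The members nearest to the 25 kb limit lay 25006 bp from Wwp2 and 25013 bp from Best3, with 15 and 31 Bapx1 and 3 and 3 wildtype tags. Just outside, peaks 24810 bp from Gm10118 and 24710 bp from Smoc2 held 13 and 36 Bapx1 and 2 and 5 wildtype tags. The members with the nearest motif had it just over 100 bp away, near Nov (21 and 5 tags) and Gm4885 (19 and 3 tags). Just outside, with the motif at 100 bp, were a peak 141756 bp from Sox9 (23 and 5 tags) and one in an intron of Gpc5 (20 and 5 tags). At the NIH3T3 limit, the nearest NIH3T3 peak lay 1075 bp and 1128 bp from the closest members, and 936 bp and 945 bp from the closest peaks left out. Beyond the searched window the motif was not rare. It stood within 150 bp in 91 of the 662 (13.7%), within 200 bp in 142 (21.5%) and inside the peak's own limits in 104. From 100 to 150 bp its density was 1.48 per kb (1.20 to 1.80), 0.967 (0.745 to 1.23) from 150 to 200 bp, and 1.12 to 1.29 in the bins from 200 to 1000 bp.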

How the data were processed

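Tags were measured in 6 libraries, 1 per condition, of which the 4 of Bapx1 and its controls entered the comparisons, and the Sox9 and IgG libraries gave values for 30 peaks. The authors mapped reads to mm9 with the Illumina pipeline, kept unique reads with at most 2 mismatches and deposited their positions, each 35 bp long, without normalization. The authors called peaks with MACS 1.4.0 against the control at a p cutoff of 1e-05. In the deposited lists a peak has its count of tags, 10 times −log10 of p, a fold enrichment (a ratio to the local background) and an FDR in percent from exchanged libraries. No peaks were called again.

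Here tags were counted by their centre at the deposited peak limits, 1 per position and strand, and scaled to the tags on the chromosomes. Distances and sequences come from NCBIM37 (mm9) with GENCODE M1. 6-mers, 1-mismatch variants and 21 listed motifs were compared between summits and flanks with two-sided Fisher's exact tests, Benjamini-Hochberg adjusted (threshold 0.05) over all 2078 6-mers and, for the motifs, over the list. A summit and its flanks are not independent windows. Intervals at 95% are exact (Clopper-Pearson or Poisson). Python 3.11.15 with scipy 1.17.1 was used, and the 6-mer test was tested on simulated windows of shuffled bases. It found 5 of 10 6-mers written into 5% of the summit windows and 10 of 10 written into 10%. With none written, 0 were called. Simulated summits and flanks had the same base composition, unlike the real windows, so the effect of composition was not covered.

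The peaks and the lists of genes and motifs were chosen with earlier results of these data known. Regions named are the 5 with the smallest p, the 3 each with the most tags, the highest fold and the lowest FDR of the list, those next to the limits, and those nearest to a listed gene. The values of 1 such region are not reported here. 6-mers named are the 5 with the largest excess, the 5 with the largest deficit and the 5 variants with the largest difference. Others are said to be chosen afterwards, and in addition the remaining called variants and motifs of the list are given. The reference carries no repeat masking, so the planned comparison of repeats and the 6-mer test without repeats were not run. With 1 library per condition there is no replicate error. Peaks on chromosomes X and Y were left out by the choice.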

Additional observations from a re-analysis of the deposited data

How the results depend on the processing

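Libraries could not be paired because each condition had 1 library. Each summit has its own flanks, but the tests of sequence treated these windows as unpaired, and no matched test was run. Of 48 recomputed main values or counts, 33 kept their direction and stayed on their side of the threshold or within the range allowed for a count. None turned its direction, which a count cannot do. Within that range the number of peaks was 849 with protein-coding starts, 837 with a motif window of 50 bp and 520 with 200 bp, against 662. Restricted to peaks with a p of at most 1e-10, the number of peaks was 146, the tag ratio 5.65 and the share at 4-fold 81.5%, with 10 6-mers called, 3 of them 1-mismatch variants, 2 listed motifs called and 4 peaks nearest to a listed gene. Counted within 200 bp of the summit, the tag ratio was 3.95 and the share at 4-fold 45.2%. Without the removal of peaks near an NIH3T3 peak, the NIH3T3 ratio was 1.15. The count of called 6-mers was 193 in the report, 296 with windows of 100 bp, and, under alternatives chosen after seeing the data, 120 without peaks near a CA or TG run and 110 against the left flanks only, where fewer windows entered. The difference in the share with a variant was 0.108 points with windows of 100 bp, and the cause was not tested. By a coding TSS within 100 kb, 8 peaks were near a listed gene. Of 122 recomputed values of single 6-mers and motifs, 104 stayed on their side of the threshold and 18 no longer passed, most of them with the 146 peaks. Alternatives that leave out repeats were not run, because the reference is not masked. Depth limits single peaks: a median of 19 tags in the Bapx1 library stands against 3 in the control.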

Other observations

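The Sox9 library and its IgG control, which the labels place in the vertebral column and the limb of E12.5 embryos, entered no comparison above because most of their positions are not on mm9. Their tags on chromosome 2 run to position 181926606, whereas mm9 ends at 181748087. In windows of 500 kb around the 662 peaks without the motif, the shift between the IgG and the wildtype S-peptide tags was clear for 596, and 565 of these (94.8%) were displaced by more than 1 kb. The 30 peaks in windows without displacement held 151 Sox9 and 138 IgG tags, a scaled ratio of 1.14 (0.8997 to 1.45), against 0.957 (0.895 to 1.02) at 5 to 10 kb from them. Summed over the 30 peaks no excess was detectable at this depth. Single peaks, named after their values were seen, differed in both directions. A peak near 1010001N08Rik held 25 Sox9 and 2 IgG tags and the peak at chr13:3708350-3708768 held 13 and 2, whereas the peak at chr8:8888570-8888921 near Arglu1 held 5 and 22. Sox9 occupancy at the other peaks could not be read.

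A peak without the motif at its summit carried it elsewhere in a region that the study had used as a gel-shift probe. This peak in an intron of Scube1, at chr15:83508569-83509338, held 82 Bapx1 and 10 wildtype tags in the embryo, and 4 and 8 in NIH3T3 cells. The probe stretch, with the motif in capitals, began 240 bp to the right of the summit.
Scube1 probe, chr15:83509195-83509230, minus strand: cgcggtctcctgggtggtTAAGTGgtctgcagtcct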
